A study of Mus musculus with 30 samples.

Results

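The CC chemokines Ccl2, Ccl3, Ccl4, Ccl5, Ccl6, Ccl7, Ccl9, Ccl12, Ccl17 and Ccl22 were followed through 10 groups of mouse dendritic cells grown from bone marrow. The 10 genes were taken by symbol from a table of 25611 genes, in which each stood in 1 row. Cells of Rubcn knockout (KO) or wild-type (WT) mice were cultured for 6 to 7 days with FLT3L at 200 ng/ml, a growth factor that yields plasmacytoid and conventional dendritic cells. Rubcn encodes Rubicon, a protein of a non-canonical autophagy pathway. In each genotype, cells were left untreated or were exposed for 30 min or 4 h to OVA or to apoptotic Jurkat cells. OVA is chicken ovalbumin, a model antigen, and Jurkat is a human T-cell leukaemia line. There were 3 libraries per group and 30 in total. How the Rubcn allele was made, and whether the libraries of a group came from separate mice, is not given in the sources used here, so p-values measure the spread between libraries, which may be technical. FLT3L was present in every group, including the untreated cells. No time is given for the untreated cells in the sources used here, so they may not match the exposed cells in time. In comparisons with untreated cells, an effect of time or handling cannot be told apart from an effect of the exposure.

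CC chemokines are small secreted proteins that draw leukocytes along a gradient by binding G protein-coupled receptors on the target cell. CCL17 and CCL22 bind CCR4, which is carried by regulatory and helper T cells. CCL3, CCL4 and CCL5 draw monocytes, T cells and natural killer cells, and CCL3 and CCL5 bind CCR1. CCL2, CCL7 and CCL12 act on CCR2 of monocytes, and CCL6 and CCL9 on CCR1 of myeloid cells. In dendritic cells, transcription of many inflammatory chemokine genes rises when NF-kB is activated, and Ccl17 and Ccl22 are well known products of mature dendritic cells.

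A library held 9734778 to 51642601 counts, with the fewest in a library of the KO group given OVA for 30 min. Levels are counts scaled to library size (CPM), with the sizes corrected by TMM, a factor that aligns the bulk of the genes between libraries. A ± after a CPM level is the SD over 3 libraries, and after a log2 fold change its standard error (SE). Rubcn itself stood at 73.6 to 84.8% of the WT level in the KO groups and was called lower in all 5 conditions, so its transcript was lowered and not lost. All 7 genes of a dendritic cell list (Cd74, H2-Ab1, H2-Aa, Flt3, Itgax, Zbtb46, Ciita) had counts in every group. So had all 12 monocyte or macrophage, 8 stromal, 8 neutrophil and 8 basophil and mast cell markers. Having counts therefore does not tell the cell types apart. The summed level in untreated WT cells was 21787 CPM for the dendritic list and 4018 CPM for the monocyte or macrophage list. The summed level of 8 basophil and mast cell markers ran from 56.6 to 111 CPM in KO libraries and from 20.4 to 38.2 CPM in WT libraries. That of 8 stromal markers ran from 965 to 1687 CPM in KO libraries and from 690.1 to 1284 CPM in WT libraries. In each condition all 7 tested basophil genes and 6 of 8 stromal genes were called higher in KO cells, and 4 to 6 of 8 plasmacytoid dendritic cell genes were called lower and 1 higher. In bulk RNA, a change in the number of cells of a type and a change in RNA per cell cannot be told apart. The KO library of replicate 1 given Jurkat cells for 30 min stood apart from its group for 4 chemokines, as described with the plot of deviations, and results that rest on it are given with and without it.

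Of the 10 genes, 2 lie on chromosome 8 of the mm10 build and 8 on chromosome 11. Ccl22 (Entrez gene 20299, chr8:94745684-94751388, plus strand) and Ccl17 (20295, chr8:94810453-94812036, plus strand) lie 59064 bases apart on chromosome 8. On chromosome 11, a first group holds Ccl2 (20296, chr11:82035577-82037452), Ccl7 (20306, chr11:82045712-82047523) and Ccl12 (20293, chr11:82101845-82103399), all on the plus strand. A second group holds Ccl5 (20304, chr11:83525779-83530518), Ccl9 (20308, chr11:83572917-83578636), Ccl6 (20305, chr11:83587886-83593087) and Ccl3 (20302, chr11:83647843-83649378) on the minus strand and Ccl4 (20303, chr11:83662584-83664683) on the plus strand. The interval of Ccl6 overlaps the antisense gene E230016K23Rik, and that of Ccl2 the antisense gene Gm17268. In the GENCODE M21 annotation no exon of either pair overlaps, and reads of the introns could not be assigned by strand, whose use in counting is not given in the sources used here.

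RefSeq promoter windows on GRCm38.p6 were at hand for 6 of the 10 genes (Ccl3, Ccl6, Ccl9, Ccl12, Ccl17 and Ccl22). The windows of 5 are printed because they set the genes of both CCR4 ligands (Ccl22 and Ccl17), Ccl3 and Ccl9 beside Ccl6, whose level moved least of the 10 at 4 h of Jurkat cells. Each runs 5' to 3' on the gene's strand over the 250 bases before the start, in lower case, with matches to the searched motifs in capitals. For Ccl3 the bases just after that start were not found in a GENCODE transcript of the gene, so the placing of its window is less certain. The window of Ccl22 was shortened to 156 bases by leaving out 94 bases that GENCODE lists as exon. The Ccl22 window is chr8:94745434-94745589, plus strand, and the Ccl17 window chr8:94810203-94810452, plus strand. The Ccl3 window is chr11:83649379-83649628, the Ccl9 window chr11:83578637-83578886 and the Ccl6 window chr11:83593088-83593337, all on the minus strand.
Ccl22: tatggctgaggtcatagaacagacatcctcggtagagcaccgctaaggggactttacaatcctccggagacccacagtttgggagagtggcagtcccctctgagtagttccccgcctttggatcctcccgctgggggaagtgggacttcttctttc
Ccl17: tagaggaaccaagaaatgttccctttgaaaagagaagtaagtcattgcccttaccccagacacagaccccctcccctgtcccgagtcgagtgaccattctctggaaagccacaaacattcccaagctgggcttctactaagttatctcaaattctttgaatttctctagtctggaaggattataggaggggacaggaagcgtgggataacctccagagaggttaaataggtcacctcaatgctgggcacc
Ccl3: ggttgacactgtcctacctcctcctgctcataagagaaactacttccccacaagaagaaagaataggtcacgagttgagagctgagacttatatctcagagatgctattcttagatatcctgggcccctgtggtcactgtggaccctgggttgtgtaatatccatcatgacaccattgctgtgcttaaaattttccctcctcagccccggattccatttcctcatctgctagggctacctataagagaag
Ccl9: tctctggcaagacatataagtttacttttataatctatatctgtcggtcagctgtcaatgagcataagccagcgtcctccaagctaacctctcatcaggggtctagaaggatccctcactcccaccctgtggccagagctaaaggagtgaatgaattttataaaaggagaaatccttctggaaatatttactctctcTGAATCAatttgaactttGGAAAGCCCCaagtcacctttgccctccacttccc
Ccl6: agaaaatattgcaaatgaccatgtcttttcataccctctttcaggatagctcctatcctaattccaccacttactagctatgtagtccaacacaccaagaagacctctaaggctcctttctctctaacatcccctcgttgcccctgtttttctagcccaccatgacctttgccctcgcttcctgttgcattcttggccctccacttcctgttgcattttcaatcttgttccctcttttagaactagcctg

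Both strands of the full 250 bases were searched for an NF-kB motif, an interferon response element and an AP-1 motif. The NF-kB motif was GGGNNN followed by TTCC or GGGNN followed by TTTCC, with overlapping matches of the 2 forms counted as 1. The interferon response element was GAAANN followed by GAAA, and the AP-1 motif was TGANTCA. The NF-kB and AP-1 motifs each matched in 1 of the 6 windows, that of Ccl9, and the interferon motif matched in none. In Ccl9 the AP-1 match lay 53 to 47 bases before the start and the NF-kB match, on the opposite strand, 35 to 26 bases before it. Of 32851 RefSeq promoters of the same length, 4.65% held the NF-kB motif, 2.98% the interferon motif and 6.75% the AP-1 motif. The other 5 windows, Ccl6 included, held none of these letters.

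At rest the 10 chemokines spanned several orders of magnitude. Per kilobase of exon, Ccl5 stood highest in untreated cells, at 120.2 CPM per kb in WT and 89.7 in KO cells, and Ccl12 lowest, at 0.120 and 0.0259. In untreated WT cells Ccl22 (57.7 CPM per kb), Ccl9 (45.0) and Ccl6 (25.8) followed Ccl5, and Ccl17 (0.722) stood just above Ccl12. Ccl5 led in every group except those given Jurkat cells for 4 h. There Ccl22 led, at 1927 CPM per kb in WT and 2109 in KO cells. Ccl4 (1045) and Ccl3 (1000.2) came next in WT cells and Ccl3 (777) and Ccl4 (642) in KO cells, while Ccl6 had gone from the fourth to the eighth place in both genotypes. Ccl12 was last in all 10 groups.

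**Figure D1:**
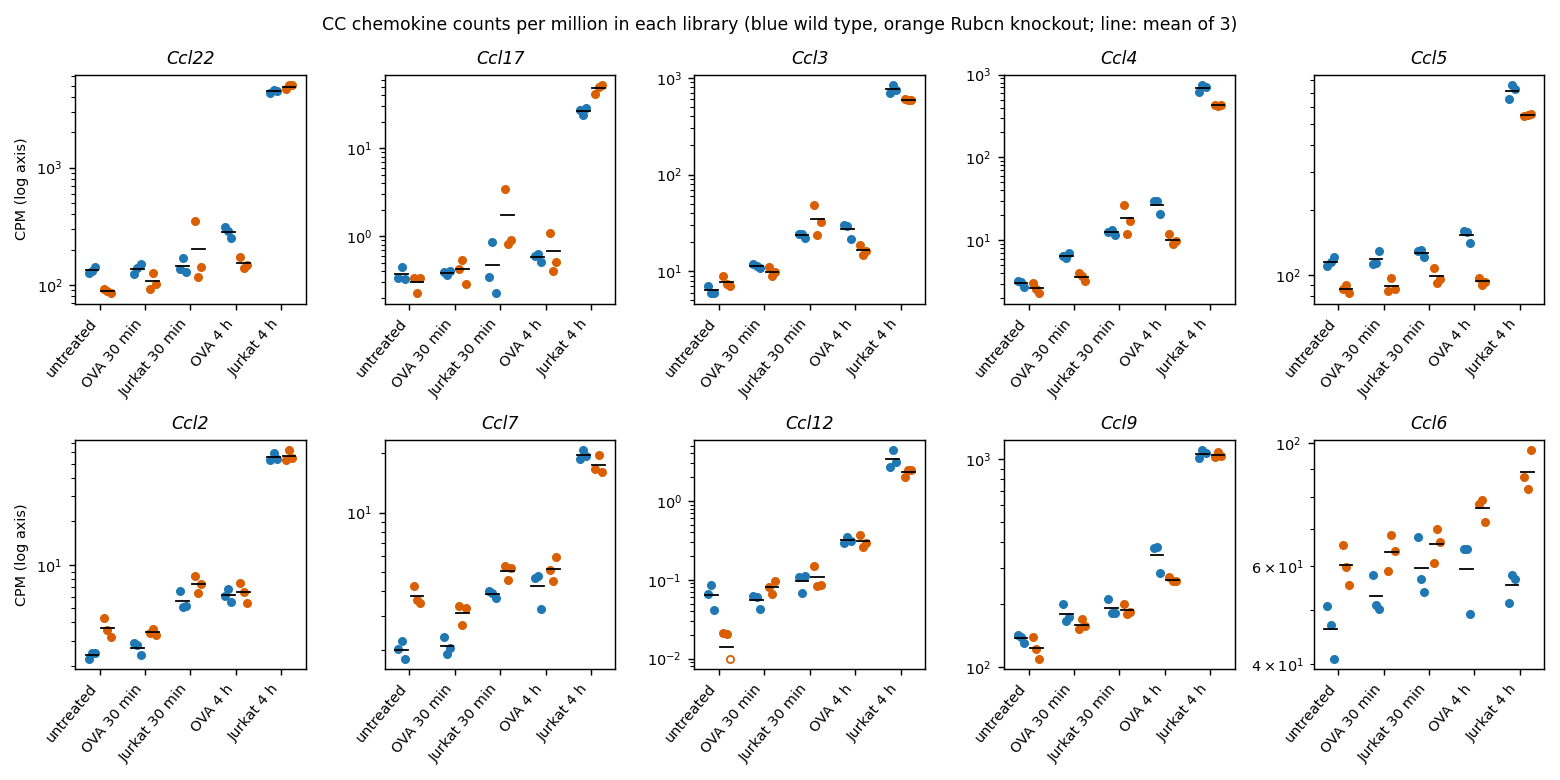
CPM of each chemokine (log axis, with a range of its own in each panel) in every library of the 5 conditions, WT in blue and KO in orange, with a line at the mean of 3 libraries. The open marker in the Ccl12 panel is a KO untreated library with 0 counts, drawn at 0.01. The 4 h Jurkat groups stand above all other groups in every panel except that of Ccl6 in WT cells.

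All 10 chemokines were higher than in untreated cells after 4 h of apoptotic Jurkat cells, in both genotypes. The largest rise in WT cells was that of Ccl4, 228-fold, followed by Ccl3 at 121-fold and Ccl17 at 71.8-fold, and the smallest that of Ccl6 at 1.20-fold. A call means an FDR under 0.05 from edgeR's quasi-likelihood test with Benjamini-Hochberg adjustment over 14808 genes, which included all 10 chemokines. Of all genes tested, 38.9% were called higher and 40.6% lower in WT cells at this time, and 37.5% and 41.0% in KO cells. The median log2 fold change of the 10 chemokines was 4.80 in WT and 4.87 in KO cells, against -0.021 and -0.033 over all genes tested. The value of Ccl6 in WT cells depended on the scaling, since with unscaled library totals it was -0.14 (FDR 0.176) while the median of all genes moved to -0.42. Cell type markers moved with this response and their part in it was not tested. All 10 markers of mature migratory dendritic cells were higher in both genotypes (medians 2.78 in WT and 2.76 in KO cells), as were 7 of 8 stromal markers in WT and 8 of 8 in KO cells. Of 12 monocyte or macrophage markers 8 were higher in both genotypes, and 2 were lower in WT cells. Other lists were mixed in WT cells, with 5 of 8 plasmacytoid markers higher and 3 lower. Of 8 markers of conventional dendritic cells type 1, 2 were higher and 5 lower in WT cells. Of 8 markers of conventional dendritic cells type 2, 7 were lower in WT and 6 in KO cells (medians -1.58 and -1.47). The 9 chemokines other than Ccl6 were called higher in both genotypes under every scaling tried. Under library totals the calls over all genes went from 5761 higher and 6017 lower to 3570 higher and 8757 lower in WT cells and from 5548 higher and 6071 lower to 3532 higher and 8584 lower in KO cells.

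Subsets were higher than in untreated cells after the shorter exposures and after OVA. At 30 min of Jurkat cells 6 of 10 were higher in WT cells (Ccl2, Ccl3, Ccl4, Ccl6, Ccl7, Ccl9; 14.2% of all genes were higher and 14.5% lower) and 9 in KO cells (all but Ccl6; 8.72% and 8.26%). The 9 became 6 without the KO Jurkat replicate 1 and 6 without the KO untreated replicate 3. Of 10 mature migratory markers 0 were higher in WT and 4 in KO cells there. Of 12 monocyte or macrophage markers 5 were higher in WT and 1 in KO cells. The part of both lists was not tested. At 4 h of OVA 9 were higher in WT cells (all but Ccl17; 11.9% and 11.7%) and 8 in KO cells (all but Ccl5 and Ccl17; 5.94% and 5.69%). At the same point 8 of 12 monocyte or macrophage markers were higher in WT and 5 in KO cells, and 8 and 3 of 10 mature migratory markers, whose part was not tested. The 8 chemokines became 5 without the KO untreated replicate 3, when Ccl6 (0.28, FDR 0.106), Ccl7 (0.41, FDR 0.0761) and Ccl22 (0.76, FDR 0.0596) missed the threshold. These 3 calls also rested on other libraries, with Ccl6 lost without the KO OVA replicate 1 or 2 or the KO untreated replicate 2 (FDRs up to 0.0711), Ccl7 without the KO OVA replicate 3 or the KO untreated replicate 2 (up to 0.113) and Ccl22 without the KO OVA replicate 1 (up to 0.0815). After 30 min of OVA 3 were higher in WT cells (Ccl3, Ccl4, Ccl9; 5.51% and 5.15%) and 1 in KO cells (Ccl9; 1.88% and 1.88%). The single KO call was lost without the KO OVA replicate 2 (0.32, FDR 0.124) or the KO untreated replicate 2 (0.36, FDR 0.059) or 3 (0.29, FDR 0.114). No chemokine was called lower in any of the 8 comparisons with untreated cells by edgeR or by DESeq2. At an unadjusted p under 0.05 in edgeR 1 was lower, Ccl7 in KO cells after 30 min of OVA (-0.30 ± 0.144, FDR 0.284).

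**Figure D2:**
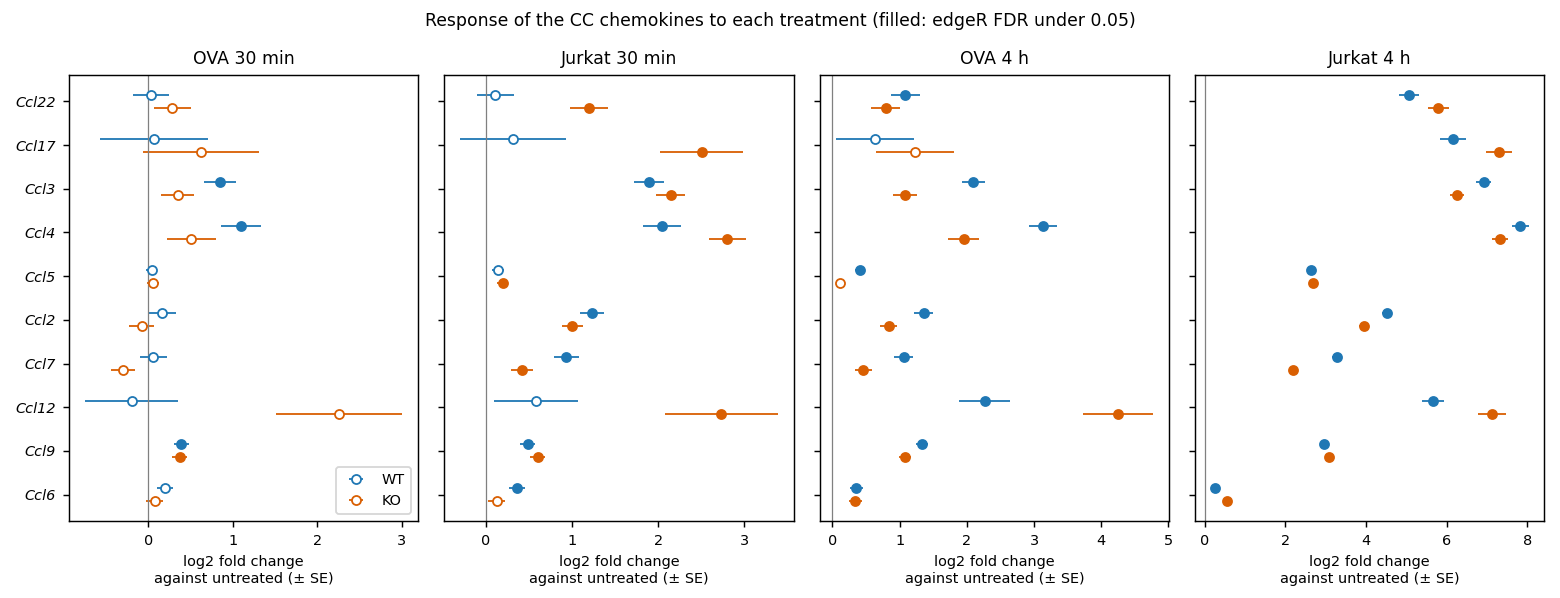
Log2 fold change of each chemokine against untreated cells of the same genotype (x axis, with its own range in each panel; bars are the standard error), WT in blue and KO in orange, filled where the edgeR FDR was under 0.05. The fitted KO values of Ccl12 rest on 2 counts in the untreated KO group and depend on the prior count. All 20 points of the 4 h Jurkat panel are filled.

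The chemokines also rose between 30 min and 4 h. With Jurkat cells 9 of 10 were higher at 4 h in WT cells (all but Ccl6; 37.9% of all genes) and 10 in KO cells (36.8%). With OVA 8 were higher in WT cells (all but Ccl6 and Ccl17; 14.9%) and 6 in KO cells (all but Ccl5, Ccl6, Ccl17 and Ccl22; 6.50%). Jurkat cells were also set against OVA at the same time, with the genotypes averaged. At 4 h 9 of 10 were higher with Jurkat cells (all but Ccl6; 39.4% of all genes), from 1.81 on the log2 scale for Ccl9 to 5.80 for Ccl17. At 30 min 7 were higher (Ccl2, Ccl3, Ccl4, Ccl7, Ccl9, Ccl17 and Ccl22; 15.5%), and 4 without the KO Jurkat replicate 1, when Ccl9 (0.14, FDR 0.108), Ccl17 (0.57, FDR 0.125) and Ccl22 (0.17, FDR 0.103) missed the threshold. The Ccl17 call was lost without any of 8 of the 12 libraries (FDRs up to 0.26) and the Ccl9 call without any of 7 (up to 0.159). Libraries given Jurkat cells also held reads counted on T-lineage genes. The sum of the 10 such genes under 1 CPM in untreated cells was 20.8 to 23.0 CPM in WT and 10.5 to 15.9 CPM in KO cells at 30 min, 48.0 to 67.3 and 38.2 to 49.9 CPM at 4 h, and 2.37 to 3.96 CPM in libraries without Jurkat cells. Its part in the chemokine values was not tested.

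Between genotypes the chemokines split. Ccl5 was lower in KO cells in all 5 conditions, Ccl4 in 3 and Ccl3 in 2, while Ccl6 was higher in 3 and Ccl2, Ccl7 and Ccl17 in 2 each. In untreated cells 3 of 10 were higher in KO cells (Ccl2, Ccl6, Ccl7; 6.00% of all genes) and 1 lower (Ccl5; 3.97%). In the 30 min OVA groups 1 was higher (Ccl7; 6.25%) and 2 lower (Ccl4, Ccl5; 6.13%). Under Jurkat cells for 30 min 4 were higher (Ccl2, Ccl3, Ccl4, Ccl17; 5.58%) and 1 lower (Ccl5; 3.67%). After 4 h of OVA 1 was higher (Ccl6; 6.22%) and 5 lower (Ccl3, Ccl4, Ccl5, Ccl9, Ccl22; 6.35%). In the 4 h Jurkat groups 2 were higher (Ccl6, Ccl17; 9.37%) and 4 lower (Ccl3, Ccl4, Ccl5, Ccl12; 13.5%).

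Several of these counts rested on 1 library. Without the KO untreated replicate 1 the untreated count went from 4 to 2. Without the KO OVA replicate 1, or the WT OVA replicate 2, the count at 30 min of OVA went from 3 to 1. Without the KO Jurkat replicate 1 the count at 30 min of Jurkat cells went from 5 to 1, and the 1 left was Ccl5. It was 3 without the KO replicate 3, 3 without the WT replicate 2 and 2 without the WT replicate 3. With Jurkat cells for 4 h DESeq2 called 3 in place of 6 (Ccl3, Ccl12 and Ccl17 missed its threshold), and with unscaled library totals the calls over all genes went from 1388 higher and 2004 lower to 3000 higher and 1013 lower, while at 4 h of OVA they went from 921 higher and 940 lower to 1330 higher and 733 lower and at 30 min of OVA from 926 higher and 908 lower to 1135 higher and 644 lower. The marker genes of mature migratory dendritic cells moved with several of these results. Their summed level (10 genes) was 815 to 853 CPM in KO against 999.8 to 1067 CPM in WT untreated libraries, 822 to 964 against 996 to 1017 at 30 min of OVA and 877 to 1066 against 1025 to 1129.5 at 30 min of Jurkat cells. At 4 h it was 949 to 984 against 1211 to 1378 CPM with OVA and 4763 to 4916 against 5012 to 5616 CPM with Jurkat cells. In the same order of conditions 7, 3, 2, 8 and 3 of the 10 marker genes were called lower in KO cells, and 2 were called higher at 30 min of Jurkat cells. Other lists also differed at 4 h of Jurkat cells. The sum of 8 conventional type 2 markers was 1028 to 1095 CPM in KO against 874 to 935 CPM in WT libraries. Of these 8, 5 were called higher in KO cells and 0 lower, beside 9.37% and 13.5% of all genes. Of 8 conventional type 1 markers 2 were higher and 4 lower, and of 8 neutrophil markers 0 and 5. The part of all these markers, and of the basophil, stromal and plasmacytoid markers given above, in the chemokine differences was not tested.

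**Figure D3:**
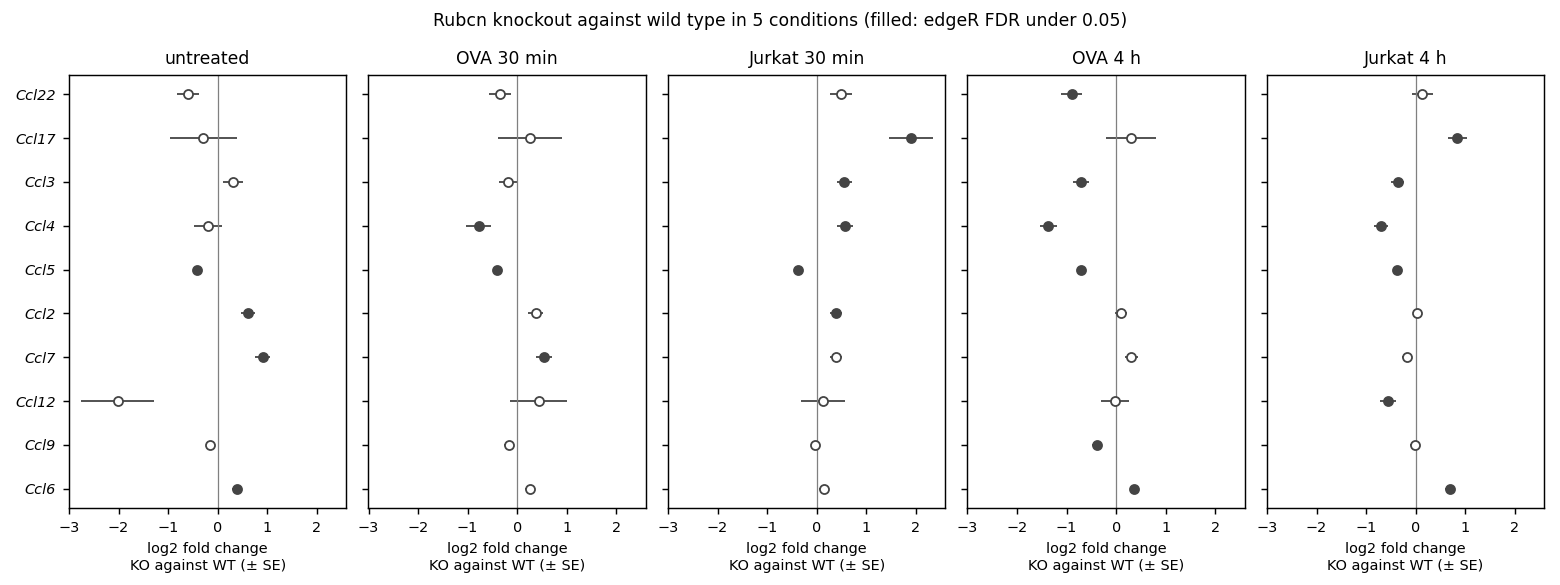
Log2 fold change of each chemokine in KO against WT cells (x axis, the same in all panels; bars are the standard error) in the 5 conditions, filled where the edgeR FDR was under 0.05. Ccl5 lies left of 0 and filled in every panel, and the wide bars of Ccl12 and Ccl17 belong to groups with few counts.

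Ccl22 and Ccl17 encode the ligands of CCR4. Ccl22 was an abundant transcript at rest, with 127, 132 and 143 CPM in the WT untreated libraries and 91.7, 88.5 and 84.6 CPM in the KO ones. The 30 min OVA libraries held 123, 138 and 150.4 CPM in WT and 93.0, 127 and 101 CPM in KO cells, so that WT libraries overlapped their untreated group and KO libraries all lay above theirs. Following 30 min of Jurkat cells the values were 136, 168 and 129.9 CPM in WT cells and 351, 117 and 141 CPM in KO cells, where the first library stood far above the other 2. Following 4 h of OVA they were 314, 289.7 and 251 CPM in WT and 172, 139 and 148 CPM in KO cells, which did not overlap. At 4 h of Jurkat cells they were 4344, 4588 and 4512 CPM in WT and 4633, 5061 and 5014 CPM in KO cells, and every library there lay above every library of the other 8 groups.

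Against untreated cells Ccl22 rose 33.4-fold in WT (log2 5.06 ± 0.252, FDR 3.12e-17 in edgeR) and 55.5-fold in KO cells (5.79 ± 0.261, FDR 3.12e-18) at 4 h of Jurkat cells. With OVA at 4 h it rose by 1.09 ± 0.217 in WT cells (edgeR FDR 0.000405) and 0.79 ± 0.218 in KO cells (FDR 0.016). In KO cells given Jurkat cells for 30 min it rose by 1.20 ± 0.219 (edgeR FDR 0.000255), and by 0.55 (FDR 0.00164) without replicate 1. The KO level was lower than the WT level at 4 h of OVA (-0.90 ± 0.216, FDR 0.00486). In untreated cells the difference was -0.60 ± 0.218 with an edgeR FDR of 0.0818, although the libraries did not overlap. After 4 h of Jurkat cells it was 0.13 with a 95% interval of -0.28 to 0.54 (edgeR FDR 0.709). At 30 min of Jurkat cells it was 0.49 with all libraries and -0.16 without the KO replicate 1.

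Ccl17 was near the bottom of the range at rest, with 0.334, 0.453 and 0.327 CPM in WT and 0.336, 0.228 and 0.341 CPM in KO untreated libraries. After 30 min of Jurkat cells it stood at 0.350, 0.858 and 0.225 CPM in WT and 3.49, 0.816 and 0.912 CPM in KO cells, so both groups were spread widely and overlapped. With OVA it stood at 0.395, 0.367 and 0.405 CPM in WT and 0.428, 0.547 and 0.290 CPM in KO cells at 30 min. In the 4 h OVA groups the values were 0.593, 0.626 and 0.519 CPM in WT and 1.10, 0.409 and 0.512 CPM in KO cells. With Jurkat cells for 4 h they were 27.5, 24.1 and 28.8 CPM in WT and 41.6, 49.8 and 52.7 CPM in KO cells, with every KO library above every WT library. The rise at 4 h of Jurkat cells was 71.8-fold in WT (log2 6.17 ± 0.327, FDR 1.39e-16 in edgeR) and 158-fold in KO cells (7.30 ± 0.324, FDR 2.17e-18). The KO level there was 1.79 times the WT level (0.84 ± 0.189, FDR 0.00175 in edgeR, adjusted p 0.176 in DESeq2). In the 30 min Jurkat groups the genotype difference was 1.90 ± 0.442 (edgeR FDR 0.00578) and 0.90 (FDR 0.132) without the KO replicate 1. The rise over untreated KO cells at that time was 2.51 with it and 1.51 (FDR 0.0105) without it. Neither genotype passed the threshold for Ccl17 with OVA at either time.

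Ccl3, Ccl4 and Ccl5 encode inflammatory chemokines that draw monocytes and T cells, and Ccl3 and Ccl4 lie side by side on chromosome 11. Ccl4 was low at rest, at 3.18, 3.15 and 2.76 CPM in WT and 3.07, 2.61 and 2.28 CPM in KO untreated libraries. Its rise had begun in WT cells at the first time point of OVA, with 6.38, 6.10 and 6.94 CPM in WT and 4.04, 3.65 and 3.19 CPM in KO cells after 30 min of OVA. Under Jurkat cells for 30 min the values were 12.5, 13.4 and 11.6 CPM in WT and 26.7, 11.8 and 17.1 CPM in KO cells, and the ranges overlapped. Following 4 h of OVA they were 29.4, 29.8 and 20.9 CPM in WT and 11.8, 8.97 and 9.78 CPM in KO cells. The lowest WT library there stood above the highest KO library. At 4 h of Jurkat cells they were 616, 749.5 and 703 CPM in WT and 428, 419 and 425 CPM in KO cells, again without overlap.

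After 4 h of Jurkat cells Ccl4 rose 228-fold in WT (log2 7.83 ± 0.201, FDR 4.26e-24 in edgeR) and 159.8-fold in KO cells (7.32 ± 0.201, FDR 2.21e-23). In the 4 h OVA groups it rose by 3.14 ± 0.205 in WT (edgeR FDR 2.13e-12) and 1.95 ± 0.23 in KO cells (FDR 6.62e-07). The KO level was 2.59-fold lower at 4 h of OVA (-1.37 ± 0.171, FDR 1.54e-06) and 1.63-fold lower at 4 h of Jurkat cells (-0.70 ± 0.133, FDR 0.000325). Following 30 min of OVA the difference was -0.78 (edgeR FDR 0.0381), and leaving out any 1 of the 6 libraries lost the call, with values from -0.87 to -0.73 and FDRs from 0.068 to 0.178. At 30 min of Jurkat cells Ccl4 was higher in KO cells by 0.57 (FDR 0.0331), and 0.21 (FDR 0.414) without the KO replicate 1. That call was also lost without the KO replicate 3 (0.62, FDR 0.0504) or any 1 of the 3 WT libraries (0.57, 0.62 and 0.52, with FDRs of 0.0859, 0.0634 and 0.108).

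Ccl3, which encodes MIP-1 alpha, was also low at rest and rose steeply. Untreated libraries held 7.08, 6.04 and 5.92 CPM in WT and 8.92, 7.48 and 7.11 CPM in KO cells, and those given Jurkat cells for 4 h 699.5, 844 and 755 CPM in WT and 605, 595 and 586 CPM in KO cells. After 30 min of OVA they held 11.8, 11.5 and 10.8 CPM in WT and 11.0, 8.90 and 9.94 CPM in KO cells, and the genotypes overlapped. With OVA for 4 h the values were 30.3, 29.7 and 21.6 CPM in WT and 18.6, 14.8 and 16.2 CPM in KO cells, which did not overlap. In the 30 min Jurkat groups they were 24.4, 24.5 and 22.0 CPM in WT and 48.0, 23.7 and 32.5 CPM in KO cells, which did. The rise at 4 h of Jurkat cells was 121-fold in WT (log2 6.92 ± 0.181, FDR 6.4e-24 in edgeR) and 76.0-fold in KO cells (6.25 ± 0.174, FDR 3.28e-23). KO cells were lower, with a log2 difference of -0.71 ± 0.156 at 4 h of OVA (edgeR FDR 0.00215). Following 4 h of Jurkat cells the difference of -0.36 (edgeR FDR 0.0422) missed the threshold without any of 5 of the 6 libraries, with FDRs up to 0.177 (all but the WT replicate 1). Under Jurkat cells for 30 min the KO excess of 0.56 (FDR 0.0171) was 0.25 (FDR 0.228) without the KO replicate 1 and 0.51 (FDR 0.0671) without the WT replicate 3.

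Ccl5, which encodes RANTES, was the 1 chemokine with a called genotype difference in all 5 conditions. The untreated libraries held 110.0, 115 and 121 CPM in WT and 86.3, 89.7 and 82.2 CPM in KO cells. With OVA the values were 112, 114 and 129.6 CPM in WT and 84.4, 96.6 and 85.9 CPM in KO cells at 30 min, and 159.7, 158 and 140.2 CPM in WT and 96.7, 90.2 and 93.1 CPM in KO cells at 4 h. With Jurkat cells they were 129, 131 and 121 CPM in WT and 108, 91.4 and 95.6 CPM in KO cells at 30 min, and 653, 760.3 and 726 CPM in WT and 543, 551 and 559.7 CPM in KO cells at 4 h. In each of the 5 conditions every KO library lay below every WT library. The KO difference was -0.42 ± 0.0669, FDR 7.2e-05 untreated, -0.41 ± 0.0682, FDR 0.000144 at 30 min of OVA and -0.37 ± 0.0666, FDR 0.000519 at 30 min of Jurkat cells in edgeR. It was -0.71 ± 0.0667, FDR 1.68e-08 at 4 h of OVA and -0.37 ± 0.0647, FDR 0.000125 at 4 h of Jurkat cells in edgeR. The 5 calls held in every fit that left out 1 library and in every other setting tried. Ccl5 rose 6.18-fold in WT and 6.41-fold in KO cells at 4 h of Jurkat cells (2.63 ± 0.0692, FDR 7.57e-24 and 2.68 ± 0.0696, FDR 6.54e-24 in edgeR). With OVA at 4 h it rose by 0.41 in WT cells (edgeR FDR 3.42e-05) and stood at 0.12 in KO cells (FDR 0.297). The KO call at 30 min of Jurkat cells (0.19, FDR 0.0447) was lost without any of 5 of the 6 libraries (all but the KO Jurkat replicate 2), and was 0.12 (FDR 0.296) without replicate 1.

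Ccl2, Ccl7 and Ccl12 encode the monocyte chemoattractants that signal through CCR2 and sit together on chromosome 11. Ccl7 was higher at rest in KO cells, with 2.03, 2.22 and 1.82 CPM in WT and 4.24, 3.61 and 3.49 CPM in KO untreated libraries. Following 30 min of OVA it stood at 2.33, 1.92 and 2.07 CPM in WT and 3.36, 2.69 and 3.28 CPM in KO cells, and at 30 min of Jurkat cells at 3.98, 3.93 and 3.68 CPM in WT and 5.33, 4.54 and 5.25 CPM in KO cells. At 4 h of OVA the values were 4.68, 4.77 and 3.26 CPM in WT and 5.13, 4.50 and 5.97 CPM in KO cells, and at 4 h of Jurkat cells 18.7, 20.7 and 19.3 CPM in WT and 16.6, 19.5 and 16.1 CPM in KO cells. The genotypes were thus apart at rest and at 30 min and overlapped at 4 h. The KO difference was 0.90 ± 0.144, FDR 7.86e-05 untreated and 0.54 ± 0.156, FDR 0.0207 at 30 min of OVA in edgeR. After 4 h of Jurkat cells it was -0.17 with a 95% interval of -0.37 to 0.030 (edgeR FDR 0.247). The OVA call was lost without the KO replicate 1 (0.43, FDR 0.146) or the WT replicate 2 (0.48, FDR 0.0967). From the untreated level Ccl7 rose 9.68-fold in WT (3.28 ± 0.127, FDR 6.62e-20 in edgeR) and 4.61-fold in KO cells (2.20 ± 0.115, FDR 1.18e-16) at 4 h of Jurkat cells. Its KO response at 30 min of Jurkat cells (0.42, FDR 0.0215) was lost without the KO Jurkat replicate 1 or 3 or the KO untreated replicate 2 or 3, with FDRs up to 0.102.

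Ccl2, also called MCP-1, stood at 2.25, 2.48 and 2.45 CPM in WT and 4.28, 3.54 and 3.17 CPM in KO untreated libraries, with every KO library higher. With OVA it stood at 2.89, 2.77 and 2.38 CPM in WT and 3.36, 3.63 and 3.28 CPM in KO cells at 30 min, and 6.09, 6.80 and 5.57 CPM in WT and 7.54, 6.49 and 5.41 CPM in KO cells at 4 h. At 30 min of Jurkat cells it stood at 6.59, 5.08 and 5.20 CPM in WT and 8.32, 6.38 and 7.34 CPM in KO cells, and after 4 h at 52.9, 59.1 and 54.2 CPM in WT and 52.9, 62.0 and 54.7 CPM in KO cells. At 4 h the genotypes overlapped with either treatment. Ccl2 rose 23.1-fold in WT (4.53 ± 0.118, FDR 6.55e-24 in edgeR) and 15.4-fold in KO cells (3.95 ± 0.11, FDR 3.51e-23) at 4 h of Jurkat cells, and by 1.36 and 0.84 at 4 h of OVA (FDR 1.73e-08 and 3.76e-05). In untreated cells the KO difference was 0.61 ± 0.149, FDR 0.00709 in edgeR, and 0.48 (FDR 0.0751) without the KO replicate 1. After 30 min of Jurkat cells it was 0.39 ± 0.118, FDR 0.0357 in edgeR, and 0.29 (FDR 0.176) without the KO replicate 1. That call was also lost without the KO replicate 3 (0.39, FDR 0.0909) or the WT replicate 2 (0.32, FDR 0.166) or 3 (0.33, FDR 0.128).

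Ccl12 had few reads, so its values are given as counts as well. The untreated libraries held 3, 4 and 2 counts in WT and 1, 1 and 0 in KO cells. At 30 min they held 3, 3 and 2 counts in WT and 4, 3 and 1 in KO cells with OVA, and 5, 3 and 6 in WT and 7, 4 and 4 in KO cells with Jurkat cells. In the 4 h OVA groups they held 13, 16 and 17 counts in WT and 20, 11 and 12 in KO cells, or 0.296, 0.345 and 0.315 CPM in WT and 0.368, 0.265 and 0.293 CPM in KO cells. With Jurkat cells for 4 h they held 103, 147 and 105 counts in WT and 76, 93 and 94 in KO cells, or 2.70, 4.40 and 3.15 CPM in WT and 2.03, 2.46 and 2.45 CPM in KO cells. In WT cells Ccl12 rose 50.9-fold at 4 h of Jurkat cells (5.67 ± 0.269, FDR 9.92e-18 in edgeR) and by 2.26 at 4 h of OVA (FDR 5.51e-05). In KO cells the ratio to the untreated group, which held 2 counts in all, was 169 at 4 h of Jurkat cells (95% counting interval 46.3 to 1402) and 22.9 at 4 h of OVA (5.96 to 195). In the 30 min Jurkat groups it was 7.81 (1.82 to 70.4), and the edgeR call was lost without the KO Jurkat replicate 1 (FDR 0.0648) or the KO untreated replicate 3 (FDR 0.0661). These intervals cover counting error only. Ccl12 was lower in KO than in WT cells at 4 h of Jurkat cells, with a log2 difference of -0.56 ± 0.16, FDR 0.0123 in edgeR, and this call was lost without the WT replicate 2 (-0.34, FDR 0.177) or the KO replicate 1 (-0.47, FDR 0.0662).

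Ccl9 and Ccl6 are neighbouring genes for ligands of CCR1. Ccl9 stood at 143, 139 and 129.7 CPM in WT and 139, 122 and 109 CPM in KO untreated libraries. At 30 min the values were 199.5, 165 and 173 CPM in WT and 151, 169 and 157 CPM in KO cells with OVA, and 212, 181 and 182 CPM in WT and 199.7, 179 and 183 CPM in KO cells with Jurkat cells, and the genotypes overlapped with both. Following 4 h of OVA it stood at 372, 378 and 283 CPM in WT and 269.9, 258 and 259 CPM in KO cells, which did not overlap. At 4 h of Jurkat cells the values were 1008, 1102 and 1071 CPM in WT and 1018, 1078 and 1035 CPM in KO cells, which did. Ccl9 rose with every treatment in both genotypes, from 0.39 and 0.37 at 30 min of OVA (edgeR FDR 0.00414 and 0.0155 in WT and KO cells) to 2.95 and 3.08 at 4 h of Jurkat cells (FDR 5.85e-22 and 2.74e-22). The WT call at 30 min of OVA was lost without the WT OVA replicate 1 (0.30, FDR 0.0509). The genotypes differed at 4 h of OVA (-0.39 ± 0.0872, FDR 0.00228 in edgeR). After 4 h of Jurkat cells the difference was -0.023 with a 95% interval of -0.19 to 0.15 (edgeR FDR 0.888).

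Ccl6 had the smallest rise of the 10 at 4 h of Jurkat cells in both genotypes, and was called higher in KO than in WT cells in 3 of 5 conditions. The untreated libraries held 50.9, 47.1 and 40.9 CPM in WT and 65.6, 59.9 and 55.5 CPM in KO cells. At 30 min the values were 57.8, 51.1 and 50.2 CPM in WT and 58.7, 68.2 and 63.9 CPM in KO cells with OVA, and 67.8, 56.8 and 53.9 CPM in WT and 60.8, 70.1 and 66.5 CPM in KO cells with Jurkat cells. At 4 h they were 64.5, 64.6 and 49.1 CPM in WT and 77.7, 79.1 and 72.0 CPM in KO cells with OVA, and 51.5, 57.9 and 56.9 CPM in WT and 87.0, 82.6 and 97.1 CPM in KO cells with Jurkat cells. The genotypes overlapped only at 30 min of Jurkat cells. The KO excess was 0.38 ± 0.0976, FDR 0.0099 untreated, 0.36 ± 0.096, FDR 0.0105 at 4 h of OVA and 0.68 ± 0.0979, FDR 1.22e-05 at 4 h of Jurkat cells in edgeR. Without the KO untreated replicate 1 the first was 0.32 (FDR 0.0761), and without the WT untreated replicate 3 it was 0.30 (FDR 0.0843). Without the WT OVA replicate 3 the second was 0.24 (FDR 0.101). The third held in every such fit. Against untreated cells Ccl6 rose by 0.56 in KO cells (FDR 5.7e-06) and 0.26 in WT cells (FDR 0.0186) at 4 h of Jurkat cells in edgeR. The WT call was lost without the WT Jurkat replicate 2 (FDR 0.0719) or 3 (FDR 0.0568), or without the WT untreated replicate 3 (0.17, FDR 0.14). The WT calls of Ccl6 at 30 min of Jurkat cells and 4 h of OVA were likewise lost without the WT untreated replicate 3 (FDR 0.0594 and 0.0725). The former was also lost without the WT Jurkat replicate 1 (FDR 0.0757), and the latter without the WT OVA replicate 1 (FDR 0.0545) or 2 (FDR 0.0576).

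The order of the 10 groups differed between the chemokines. For Ccl3, Ccl4, Ccl5 and Ccl12 the WT group given Jurkat cells for 4 h stood highest and the KO group second, without overlap. For Ccl22, Ccl17 and Ccl6 the KO group stood highest, and for Ccl22 and Ccl17 the WT group came second, without overlap. For Ccl2, Ccl7 and Ccl9 the 2 groups overlapped. Below them, neighbours in the order mostly overlapped. For Ccl17 all 8 remaining groups formed 1 chain of overlapping ranges. For Ccl5 the 4 remaining WT groups stood above the 4 remaining KO groups, and for Ccl6 the 5 KO groups stood above the 5 WT groups in mean level. The lowest mean was that of the untreated KO group for Ccl22, Ccl17, Ccl4, Ccl5, Ccl12 and Ccl9 and that of the untreated WT group for Ccl2, Ccl3, Ccl6 and Ccl7.

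An interaction term asked if the genotypes responded unequally. Ccl7 was the 1 chemokine that passed, at 4 h of Jurkat cells, where its rise was smaller in KO cells, with a log2 difference of -1.07 ± 0.176, FDR 0.000747 in edgeR (4.26% of all genes passed in either direction). Its libraries, given above, started apart at rest and met at 4 h. Ccl2 had a difference of -0.58 at the same point with an edgeR FDR of 0.0517 and was called by DESeq2. In the 4 h OVA groups none of the 10 passed in edgeR (0.0405% of all genes), with 6 at an unadjusted p under 0.05, and DESeq2 called 2, Ccl3 and Ccl4. The differences of response (KO minus WT) for Ccl3 and Ccl4 there were -1.01 ± 0.251 (edgeR FDR 0.184) and -1.18 ± 0.332 (FDR 0.327). Under Jurkat cells for 30 min none passed (0.00675% of all genes), with 5 at an unadjusted p under 0.05 in edgeR and 0 calls in DESeq2. Following 30 min of OVA none passed (0% of all genes), with 1 at an unadjusted p under 0.05 in edgeR and 0 calls in DESeq2. These comparisons share the untreated libraries.

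**Figure D4:**
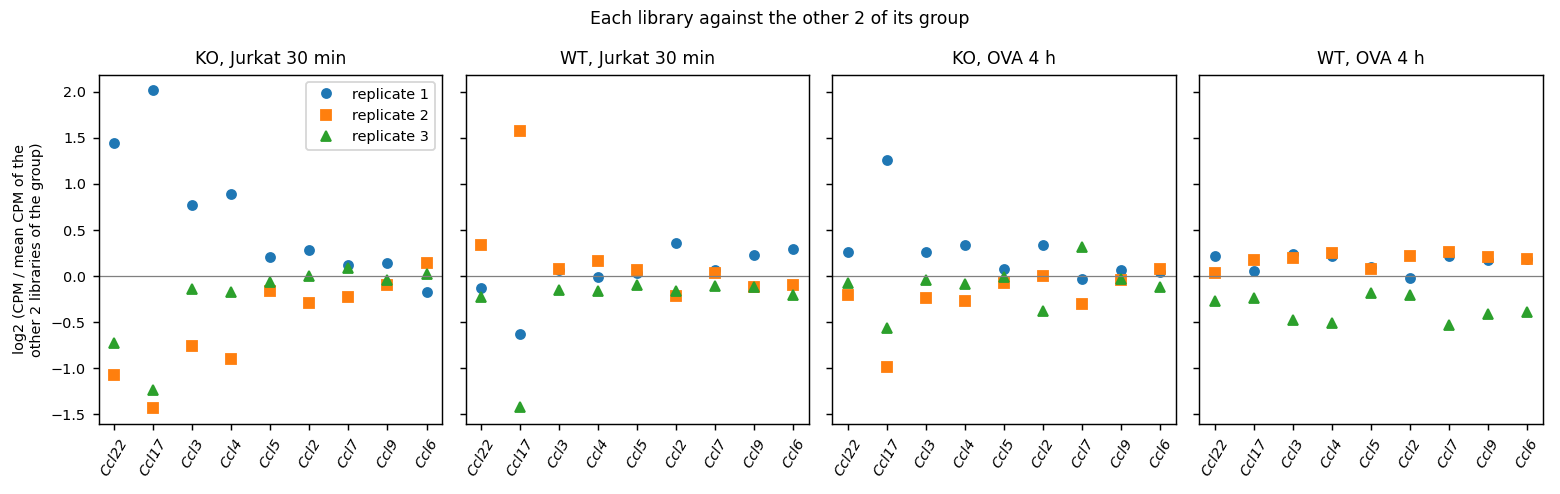
Log2 ratio of each library to the mean of the other 2 of its group (y axis) for the 9 chemokines other than Ccl12, in the groups given Jurkat cells for 30 min or OVA for 4 h. Replicate 1 of the KO Jurkat group lies far above 0 for Ccl22, Ccl17, Ccl3 and Ccl4 and near 0 for the other 5, and replicate 3 of the WT OVA group lies below 0 for all 9.

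In the KO Jurkat replicate 1 at 30 min, Ccl17 stood at 4.04 times the mean of the other 2 libraries, Ccl22 at 2.72 times, Ccl4 at 1.85 times and Ccl3 at 1.71 times. These were the 4 chemokines beyond 1.5 times in that library. The other 5 shown ran from 0.890 (Ccl6) to 1.21 (Ccl2) times. The sum of mature migratory markers in the KO group given Jurkat cells for 30 min spread from 877 to 1066 CPM. These values are not assigned to single libraries here, and the part of the markers was not tested. In the WT OVA group at 4 h, replicate 3 stood below the other 2 for all 9, at 0.690 (Ccl7) to 0.881 (Ccl5) times their mean. Single libraries also set the spread of Ccl17, with the WT Jurkat replicate 2 at 2.98 times and the KO OVA replicate 1 at 4 h at 2.40 times the mean of their groups' other libraries.

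Of 14 further CC chemokine genes, 6 had enough counts to be tested (Ccl1, Ccl20, Ccl24, Ccl25, Ccl27a and Ccl28), and Ccl8, Ccl11, Ccl19, Ccl21a, Ccl21b, Ccl21c, Ccl26 and Ccl27b had not. With Jurkat cells for 4 h 3 of the 6 were higher in both genotypes and none lower, a share of higher genes near the 38.9% in WT and 37.5% in KO cells of all genes, with a median log2 fold change of 0.57 in WT and 1.33 in KO cells. Ccl1, which encodes a CCR8 ligand, went from 0.0364 ± 0.0331 CPM (mean ± SD, n = 3 libraries) to 3.03 ± 0.0838 CPM in WT cells and from 0.0270 ± 0.0305 to 2.78 ± 0.120 CPM in KO cells (6.30 ± 0.367, FDR 1.35e-15 and 6.52 ± 0.381, FDR 1.64e-15 in edgeR). Ccl20, which encodes the CCR6 ligand, had 0 counts in the untreated groups of both genotypes. It had 130 counts over the 3 WT and 159 over the 3 KO libraries at 4 h of Jurkat cells, at least 58.0-fold and 68.1-fold higher when the untreated groups are set at a floor of 3 counts over the group. With the counting error of both groups the lower 95% limits were 46.5-fold and 54.7-fold. Ccl20 was also called at 4 h of OVA, with 13 and 14 counts, but DESeq2 made no call in KO cells. The ratios by the same floor were 4.22 and 4.96 (lower 95% counting limits 2.97 and 3.53). Ccl24, which encodes eotaxin-2, rose from 0.0887 ± 0.0290 to 0.502 ± 0.0683 CPM in KO cells (edgeR FDR 1.3e-05) and from 0.178 ± 0.0198 to 0.353 ± 0.0897 CPM in WT cells (FDR 0.038), and the WT call was not made by DESeq2 or with library totals. None of the 6 differed between genotypes by edgeR or DESeq2 in any of the 5 conditions. At an unadjusted p under 0.05 in edgeR 1 did, at 4 h of OVA.

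At 4 h of Jurkat cells receptor genes were called in both directions, at shares near those of all genes. Of 14 genes listed for CC chemokine receptors and atypical receptors, 10 were tested, and Ccr4, Ccr8, Ackr2 and Ackr4 had too few counts. Following 4 h of Jurkat cells 3 were higher and 5 lower in both genotypes, beside 38.9% higher and 40.6% lower of all genes in WT cells and 37.5% and 41.0% in KO cells, with medians of -0.31 in WT and -0.28 in KO cells. Ccr7, the receptor that guides dendritic cells to lymph nodes, rose from 141 ± 3.98 to 954 ± 86.1 CPM in WT cells (2.75 ± 0.0889, FDR 8.83e-22 in edgeR) and from 104 ± 3.68 to 859.6 ± 1.45 CPM in KO cells (3.05 ± 0.0902, FDR 1.29e-22). Ccrl2, an atypical receptor that binds chemerin, rose from 8.30 ± 0.461 to 189 ± 17.1 CPM in WT cells and from 8.26 ± 0.581 to 150.1 ± 12.2 CPM in KO cells. Ccrl2 was also higher at both times of OVA and at 30 min of Jurkat cells in both genotypes. Ackr1 rose by 1.60 in WT and 1.56 in KO cells. Among the 10 tested, 4 were higher and 0 lower in WT cells at 30 min of Jurkat cells, beside 14.2% and 14.5% of all genes. In KO cells there 3 were higher and 0 lower, beside 8.72% and 8.26%. With OVA for 4 h 3 were higher and 0 lower in WT cells (11.9% and 11.7%). In KO cells 2 were called, counting both directions, with Ccrl2 among them as higher (5.94% of all genes higher and 5.69% lower). With OVA for 30 min 1 was higher and 0 lower in WT (5.51% and 5.15%) and in KO cells (1.88% and 1.88%).

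Among the receptors that fell was that of the monocyte chemoattractants. Ccr2, the receptor of CCL2, CCL7 and CCL12, went from 1077 ± 102 to 400.0 ± 22.4 CPM in WT cells (-1.43 ± 0.0744, FDR 9.08e-17 in edgeR) and from 982 ± 54.2 to 398 ± 24.5 CPM in KO cells (-1.30 ± 0.0741, FDR 8.52e-16). Ccr1, a receptor of CCL3, CCL5, CCL6 and CCL9, fell by 0.80 in WT and 0.68 in KO cells on the log2 scale. Ccr6 fell by 1.49 and 1.52, Ccr1l1 fell by 0.95 and 0.99, and Ccr9 fell by 0.33 and 0.58. These 5 stayed called lower in both genotypes with DESeq2 size factors in edgeR. The smallest fall there was that of Ccr9 in WT cells (-0.26, edgeR FDR 0.00423). Library totals moved most genes down at this point, so they could not test these falls. Between genotypes Ccr7 was lower in KO cells at rest (-0.45 ± 0.0851, FDR 0.000665) and at 4 h of OVA (-0.48 ± 0.0849, FDR 0.000215) in edgeR. Ccrl2 was lower in KO cells at 4 h of both treatments (-0.46 ± 0.0814, FDR 0.000212 with OVA and -0.33 ± 0.0649, FDR 0.000424 with Jurkat cells, in edgeR). Ccr6 was higher at rest by 0.40 and at 30 min of OVA by 0.39, and Ccr1 at 4 h of Jurkat cells by 0.19 (edgeR FDR 0.0373, and 0.0548 with DESeq2 size factors). Ccr6 at 4 h of Jurkat cells had an edgeR FDR of 0.0761, and 0.0258 with library totals. Ccr2 was lower at 30 min of OVA (-0.29) and Ackr1 at 4 h of OVA (-0.73). At 30 min of Jurkat cells no receptor was called in edgeR, with 2 at an unadjusted p under 0.05 and 0 calls in DESeq2.

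**Figure D5:**
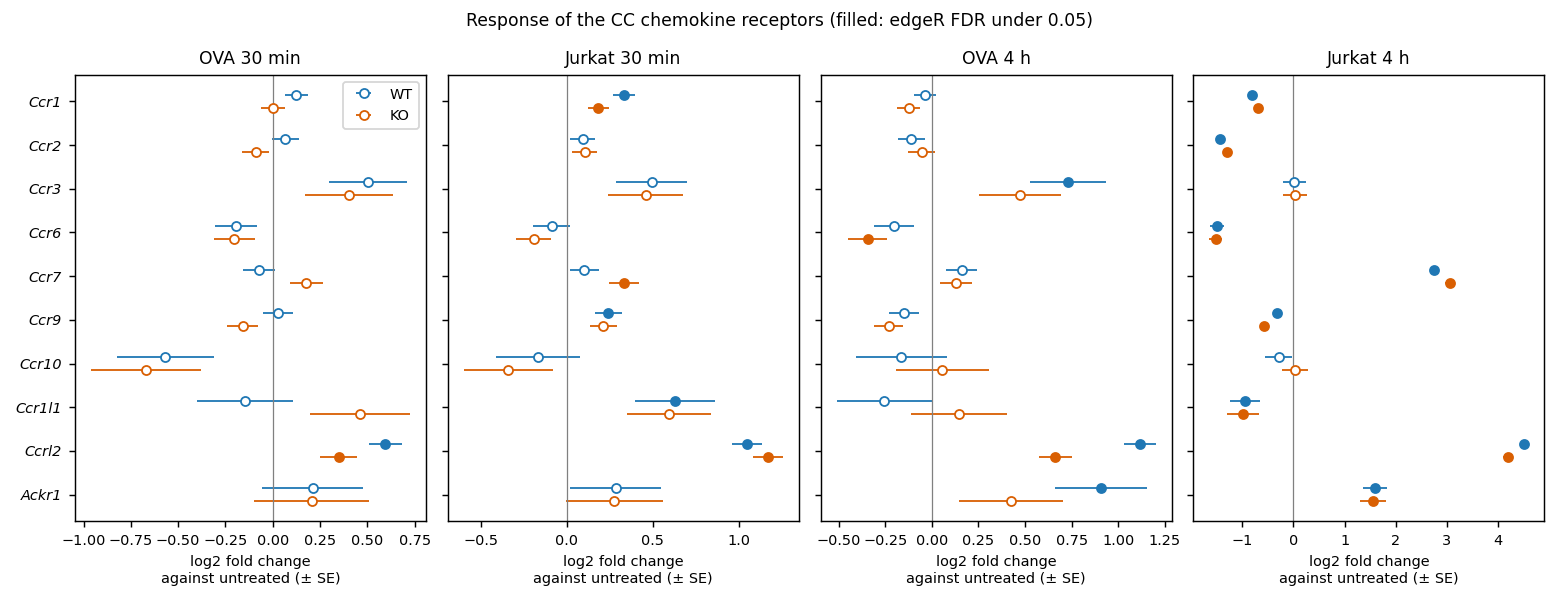
Log2 fold change of 10 CC chemokine receptor genes against untreated cells of the same genotype (x axis, with its own range in each panel; bars are the standard error), WT in blue and KO in orange, filled where the edgeR FDR was under 0.05. In the 4 h Jurkat panel Ccr7, Ccrl2 and Ackr1 lie right of 0 and Ccr1, Ccr2, Ccr6, Ccr9 and Ccr1l1 left of it in both genotypes.

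Across the 10 group means of log2(CPM + 0.5), the chemokines other than Ccl6 ran together, with Pearson's r from 0.882 to 0.992, and Ccl6 had an r of 0.233 to 0.549 with the other 9. These are descriptions over 10 groups that share the large step at 4 h of Jurkat cells. Among 10401 genes with at least 5 CPM in 1 group mean, the 3 most like Ccl22 were Vmn2r90, Lad1 and Serpinb9 (r = 0.998), and those most like Ccl17 included Ms4a1 and Timd4 (r from 0.995 to 0.996). For Ccl3 they were Ube2d2a, Ccrl2 and Dusp2 (r from 0.995 to 0.996) and for Ccl4 Arpc4, Memo1 and Denr (r from 0.989 to 0.991). For Ccl5 they were Tmcc3, Lgals9 and Pkib (r from 0.998 to 0.999). For Ccl2 they were Dcun1d5, Atf3 and Lif (r from 0.992 to 0.995), for Ccl7 Maged2, Wfdc17 and Lif (r from 0.986 to 0.990) and for Ccl12 Txn1, Mthfsl and Lynx1 (r from 0.995 to 0.997). For Ccl9 they were Ehd1, Mitf and Bcl2a1a (r from 0.994 to 0.996). For Ccl6, which had no such step in WT cells, they were Dapk3, Lhfp and Galc (r from 0.946 to 0.953), a lower likeness than for the other 9.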

How the data were processed

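RNA was sequenced from 30 libraries in 10 groups of 3, assigned by genotype and treatment labels. The deposited table gave whole read counts of each gene beside its mm10 interval, per the file headers. STAR 2.5, Subread, featureCounts 1.5.0-p1, DESeq2 and mm10 are named in the submitters' processing notes; the treatment of strand and of human Jurkat reads is not given in the sources used here. All count columns matched 1 sample title, and 0 were left unmapped. Replicates of a group differed by more than counting noise.

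Counts were scaled with TMM and filtered with filterByExpr by group, which left 14808 genes. A group-means model of all 30 libraries was fitted in edgeR 4.0.16 (R 4.3.3), and 23 contrasts were tested by quasi-likelihood F, two-sided; Benjamini-Hochberg FDR under 0.05 made a call. SEs were taken as log2 fold change over root F. The steps were tested on simulated counts in which only the untreated KO group differed. A shift as broad as that at 4 h of Jurkat cells was not covered. Exon lengths came from GENCODE M21 and promoters from RefSeq GRCm38.p6. Totals of 9734778 to 51642601 counts per library set the precision of low genes such as Ccl12.

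The members, lists and tests were chosen with earlier results of these data known. All 10 chemokines are named in every family of contrasts; the 3 genes most alike are those with the highest r among genes of at least 5 CPM in 1 group mean. Alternatives were DESeq2 1.42.0, its size factors, unscaled library totals, no filter, at least 5 CPM in 3 libraries, replicate blocks, the compared groups alone, leaving out each library and, chosen after seeing the data, leaving out both 4 h Jurkat groups. A receptor gene and a gene resembling Ccl17 are not reported here.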

Additional observations from a re-analysis of the deposited data

Results flagged for a closer look

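The response of Ccl7 to 4 h of Jurkat cells differed between genotypes by -1.07 on the log2 scale (KO response minus WT response, edgeR interaction FDR 0.000747). It was singled out because the difference between the genotypes' responses passed the test itself. The untreated means were 2.02 ± 0.202 CPM in WT and 3.78 ± 0.406 CPM in KO cells (SD, n = 3 libraries), and those at 4 h of Jurkat cells 19.6 ± 1.01 and 17.4 ± 1.87 CPM. The call held in every fit that left out 1 library, with values from -1.16 to -0.98.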

How the results depend on the processing

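Of the values for single chemokines under settings other than leaving out a library, 1352 kept their direction and their side of the threshold, 21 lost it, 21 gained it and 6 changed sign; of the counts, 184 stayed within 1.5 times and 11 did not. With library totals the KO against WT value was 0.0057 for Ccl12 at 4 h of OVA and 0.058 for Ccl9 at 4 h of Jurkat cells, the WT response of Ccl6 to 4 h of Jurkat cells -0.14, the interaction of Ccl6 at 4 h of OVA 0.0011 and its Jurkat against OVA value at 4 h -0.30 (edgeR FDR 0.000157, main 0.062). Under the same totals the all-gene calls for Jurkat against OVA at 4 h went from 5834 higher and 6395 lower to 3502 higher and 9301 lower and for the interaction at 4 h of Jurkat cells from 254 higher and 377 lower to 661 higher and 200 lower. In a fit of the compared groups alone Ccl9 was 0.0010 at 4 h of Jurkat cells, KO against WT, and the KO against WT counts were 5 (main 3) at 30 min of OVA and 2 (main 5) at 30 min of Jurkat cells. DESeq2 gave 3 (main 6) at 4 h of Jurkat cells. For the interaction at 4 h of OVA the count was 2 in DESeq2 and 1 with the replicate block within genotype (main 0); at 4 h of Jurkat cells (main 1) it was 2 with no filter, with at least 5 CPM in 3 libraries, with DESeq2 and with the replicate block across all libraries, and 3 with the block within genotype and with the compared groups alone.

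Whether replicate numbers pair the libraries was not settled. Within a genotype, deviations of same-numbered libraries correlated from -0.30 to 0.59 (median 0.043), over 0.1 in 21 of 60 pairs. Those of differently numbered libraries correlated from -0.62 to 0.36 (median -0.0056), over 0.1 in 29 of 120 pairs. The block changed no other count by more than 1.5 times.

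Leaving out each library gave counts of 2 to 4 (KO against WT, untreated), 1 to 2 (30 min of OVA), 1 to 7 (30 min of Jurkat cells), 0 to 1 (KO response to 30 min of OVA), 5 to 8 (KO response to 4 h of OVA), 0 to 1, 0 to 1 and 1 to 2 (interactions at 30 min of Jurkat cells, 4 h of OVA and 4 h of Jurkat cells) and 4 to 8 (Jurkat against OVA, 30 min). Values that changed sign in such fits, none of them called with all libraries, ran for KO against WT from -0.19 to 0.28 (Ccl12), -0.16 to 0.77 (Ccl22) and -0.080 to 0.046 (Ccl9) at 30 min of Jurkat cells, -0.044 to 0.20 (Ccl2), -0.32 to 0.55 (Ccl17) and -0.19 to 0.066 (Ccl12) at 4 h of OVA, and -0.043 to 0.079 (Ccl2) and -0.059 to 0.0058 (Ccl9) at 4 h of Jurkat cells. For responses they ran in WT cells from -0.020 to 0.13 (Ccl7), -0.028 to 0.078 (Ccl5), -0.039 to 0.11 (Ccl22), -0.45 to 0.057 (Ccl12) and -0.020 to 0.23 (Ccl17) at 30 min of OVA and -0.38 to 0.68 (Ccl17) and -0.012 to 0.17 (Ccl22) at 30 min of Jurkat cells, and in KO cells from -0.018 to 0.095 (Ccl5) and -0.17 to 0.047 (Ccl2) at 30 min of OVA. They ran from -0.14 to 0.064 (Ccl6) and -0.028 to 0.84 (Ccl17) for the interaction at 4 h of OVA, -0.0095 to 0.10 (Ccl5) for that at 4 h of Jurkat cells and -0.0037 to 0.090 (Ccl6) for Jurkat against OVA at 4 h. Depth limited Ccl12, which the filter at 5 CPM left out.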
